A study of Mus musculus with 2 samples.

Results

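The troponins and tropomyosins are the regulatory proteins of the striated muscle thin filament. They were followed here by gene symbol in spatial transcriptomics data from a healing mouse femur, and 9 genes were named: the slow troponins Tnnc1, Tnni1 and Tnnt1, the fast troponins Tnnc2, Tnni2 and Tnnt3, and the tropomyosins Tpm1, Tpm2 and Tpm3. Of these, 8 had a row among the 19465 genes counted, and Tpm3 was not analysed here. The rule that picks them uses gene names and no measured value.

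The study asked how cells at a fracture site respond to mechanical loading. Female bone cell reporter mice, which carry eGFP and mCherry labels on Ibsp and Acp5 (genes of bone-forming cells and of bone-resorbing osteoclasts), received a defect in the middle of the femoral shaft at 12 weeks of age. From week 3 to week 5 after surgery they were either sham-loaded (Control) or cyclically loaded (Loaded), in both cases 3 times per week, and both groups were euthanized at 17 weeks of age. One section of the femur of 1 mouse per group was measured on Visium slides, which capture RNA on a grid of spots of 55 µm diameter with a pitch of 100 µm.

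The sections held 1962 spots under tissue with 9002147 unique molecular identifiers (UMIs, counted probe molecules) in Control, and 1436 spots with 4910716 UMIs in Loaded. The authors had picked 131 bone spots in Control and 146 in Loaded from the stained section, between the middle pins of the fixator. In these bone spots the osteoblast markers (Bglap, Col1a1, Alpl, Sp7, Ibsp) supplied 0.825% of the UMIs in Control and 2.46% in Loaded. A list of 22 skeletal muscle genes that holds no troponin or tropomyosin supplied far more, 13.8% in Control and 7.01% in Loaded, so the bone spots of both sections carried muscle RNA. Over all spots this list took 25.3% of the UMIs in Control and 14.8% in Loaded. A spot can hold several cells or parts of them, and fewer cells of a type and less RNA per cell cannot be told apart. The sections lay at different angles and held different stretches of muscle, so the muscle each section cut through and the loading cannot be told apart. With 1 section per condition no test was possible, and every interval below is a 95% interval of counting error only. For a share of spots the interval counts spots of 1 section, which are not replicates. The 557 barcodes found under tissue in both sections mark the same grid positions on both slides, not shared cells.

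Contraction of striated muscle is switched by calcium. Troponin C binds calcium, troponin I holds back the myosin heads at rest, and troponin T ties the complex to tropomyosin, a coiled coil that runs along the actin filament and covers or frees the myosin sites. Slow-twitch fibres, which use the heavy chain Myh7, and fast-twitch fibres, which use Myh1, Myh2 and Myh4, express different troponin genes. Tnnc1 (troponin C of slow and cardiac muscle), Tnni1 and Tnnt1 form the slow set, and Tnnc2, Tnni2 and Tnnt3 the fast set. Tpm1 encodes the alpha tropomyosin that prevails in fast fibres, and Tpm2 the beta tropomyosin. Both tropomyosin genes also have products outside skeletal muscle.

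On the GRCm38 build Tnnc1 lies at chr14:31208312-31211729, Tnni1 at chr1:135779434-135810989 and Tnnt1 at chr7:4504570-4516382. Tnnc2 lies at chr2:164777161-164779967, Tpm1 at chr9:67022590-67049406 and Tpm2 at chr4:43514711-43523765. Tnni2 (chr7:142441808-142444410) and Tnnt3 (chr7:142498836-142516009) lie on the same strand, with Tnnt3 starting 54426 bp past the end of Tnni2. The transcripts of paired isoforms shared no identical run longer than 21 bases for troponin C, 22 bases for troponin I, 16 bases for troponin T and 37 bases for Tpm1 and Tpm2. The probe sequences were not used here.

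RefSeq promoter windows of GRCm38.p6 were at hand for 6 of the 8 genes, and Tnni2 and Tnnt3 are named only. The 250 bases before the RefSeq start are shown for the slow set, whose 3 genes were each higher in muscle spots rich in Myh7. Whether they were counted together in single spots was not tested. They are also shown for Tnnc2, the fast partner of Tnnc1. The windows of Tnni1 and Tnnt1 lie inside the gene positions given above, which came from GENCODE, and that of Tnnc2 does in part. RefSeq gives 2 starts for Tnni1, and the window of the first is shown. Capitals mark E-boxes, the motif CANNTG bound by myogenic regulatory factors, which reads the same on both strands.
Tnnc1, chr14:31208062-31208311, plus strand: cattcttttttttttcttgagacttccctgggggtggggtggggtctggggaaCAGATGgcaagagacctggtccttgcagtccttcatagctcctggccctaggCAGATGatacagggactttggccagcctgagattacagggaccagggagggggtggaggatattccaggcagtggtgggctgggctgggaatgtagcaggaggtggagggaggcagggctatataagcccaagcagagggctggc
Tnni1, chr1:135799171-135799420, plus strand: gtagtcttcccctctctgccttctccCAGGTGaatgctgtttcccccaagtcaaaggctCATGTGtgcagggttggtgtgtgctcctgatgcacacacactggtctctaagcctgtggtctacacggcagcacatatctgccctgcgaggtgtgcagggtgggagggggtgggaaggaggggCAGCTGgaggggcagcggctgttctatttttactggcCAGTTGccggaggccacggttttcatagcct
Tnnt1, chr7:4515976-4516225, minus strand: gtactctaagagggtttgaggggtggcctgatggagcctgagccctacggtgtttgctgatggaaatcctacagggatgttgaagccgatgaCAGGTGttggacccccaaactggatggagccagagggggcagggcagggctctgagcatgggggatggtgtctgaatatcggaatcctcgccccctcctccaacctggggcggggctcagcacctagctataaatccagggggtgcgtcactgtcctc
Tnnc2, chr2:164779735-164779984, minus strand: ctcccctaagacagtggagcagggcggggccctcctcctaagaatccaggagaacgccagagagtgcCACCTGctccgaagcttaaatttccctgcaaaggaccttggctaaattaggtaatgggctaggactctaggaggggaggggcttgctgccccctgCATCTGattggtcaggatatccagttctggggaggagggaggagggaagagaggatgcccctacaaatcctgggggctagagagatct
The window of Tnnc1 held 2 E-boxes, that of Tnni1 held 4, that of Tnnt1 held 1 and that of Tnnc2 held 2. The window of the second Tnni1 start, not shown, held 2. Of all 32851 promoter windows of this length, 66.2% held at least 1 E-box. The word TATAAA was found on either strand before Tnnt1, as in 12.4% of all windows, and CATTCC, the M-CAT motif, before Tnnc1 and Tpm1, as in 12.6% of all windows. MEF2 and CArG motifs, at 1.69% and 1.47% of all windows, were not matched in any of these windows. A match to a motif describes the letters alone.

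In both sections the troponins counted were mostly the fast ones, and the Loaded section held the larger slow portion. Over all spots Control held 10096 slow and 391134 fast troponin UMIs, and Loaded held 21287 slow and 151406 fast. The slow share, the slow set's part of all 6 troponins' UMIs, was 2.52% (2.47 to 2.57) in Control and 12.3% (12.2 to 12.5) in Loaded, a log2 odds ratio of 2.45 (2.41 to 2.48). By pair, the share of Tnni1 within troponin I was 9.29% in Control and 55.8% in Loaded. Tnnt1 took 3.06% of troponin T in Control and 14.3% in Loaded, and Tnnc1 took 1.03% of troponin C in Control and 5.02% in Loaded. The number of UMIs a gene yields depends on its probes, so a share is read between spots and sections and not as a molar ratio.

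The slow troponins were unevenly spread. In the map of slow share by spot, Control was at or near 0 over the broad muscle above the bone and high along the lower edge, and Loaded was high in several places along its upper edge and at its right end. Among Control spots with at least 20 troponin UMIs the median slow share was 0.160% and the highest 78.0%, and 240 of 1332 spots reached 10%. Among Loaded spots the median was 8.93% and the highest 81.2%, and 622 of 1309 spots reached 10%. The cut at 20 UMIs left unlike sets of spots. Outside bone, of spots with under 5% of UMIs from the muscle list, it kept 83 of 458 in Control and 236 of 296 in Loaded. Summed over all spots of that class the slow share was 13.8% in Control and 21.7% in Loaded.

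**Figure D1:**
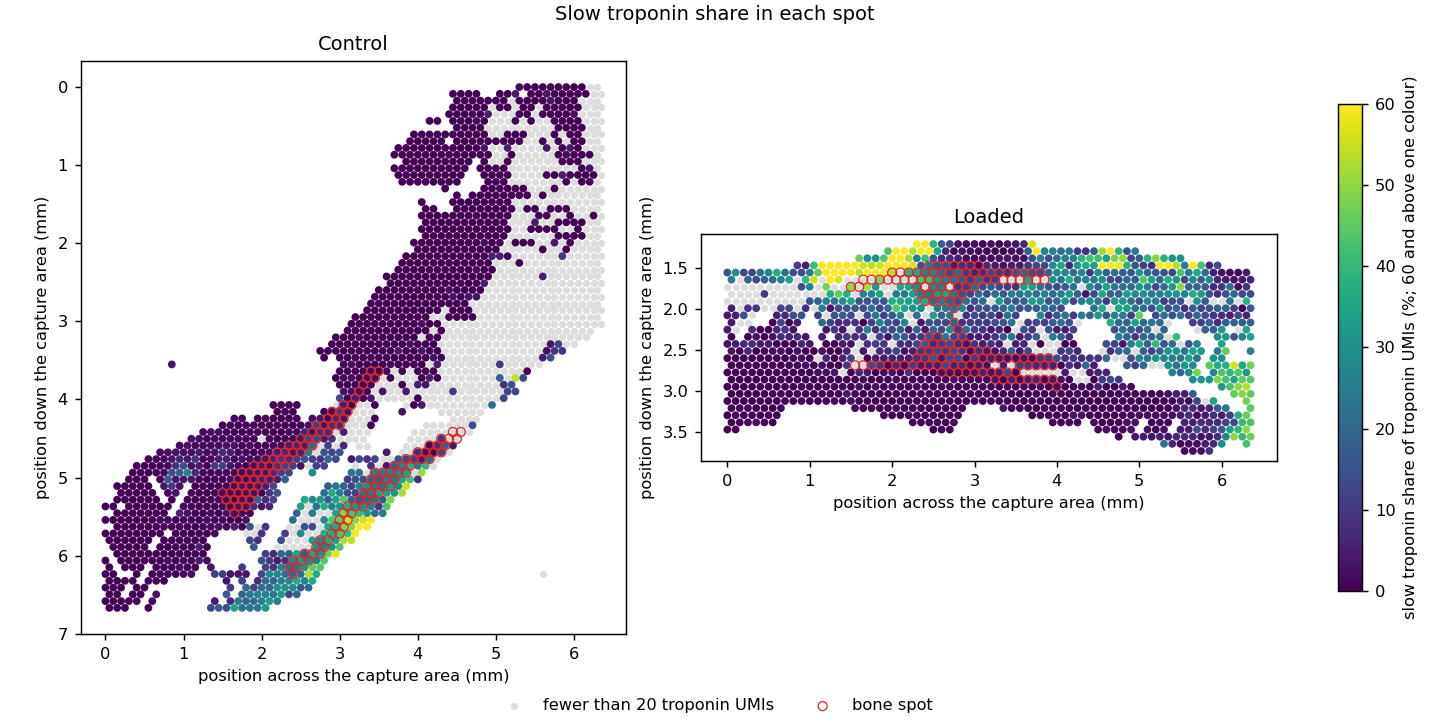
Slow share of troponin UMIs in each spot of the Control and Loaded sections, with position across and down the capture area in mm; grey spots held fewer than 20 troponin UMIs and red rings mark bone spots. High shares lie along the lower edge of the Control section and at several places along the upper edge and right end of the Loaded section.

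Muscle spots, outside the bone region and with at least 10% of their UMIs from the muscle list, numbered 965 in Control and 590 in Loaded. They were split without using a troponin, by the Myh7 share of the heavy chains Myh7, Myh1, Myh2 and Myh4. Spots with a Myh7 share of at least 10%, called slow-rich below, numbered 30 in Control (1.53% of all spots) and 120 in Loaded (8.36%). These 30 Control spots held 22.4% of the section's slow troponin UMIs and 1.46% of its fast ones. The 120 Loaded spots held 52.0% of the slow and 14.3% of the fast UMIs. In Control 26 of the 30 spots formed 1 patch, 100 to 866 µm from the nearest bone spot, with a slow share of 26.0%. In Loaded 4 patches of 69, 26, 8 and 5 spots had slow shares of 30.6%, 35.4%, 60.6% and 35.0%, and the smallest and the 8-spot patch reached to 100 µm from bone.

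Each slow troponin was many times higher in slow-rich than in other muscle spots of the same section. Tnnc1 stood at 25.7 per 10,000 UMIs in slow-rich and 1.22 in other muscle spots of Control, and at 31.1 and 1.52 in Loaded. On the log2 scale, after normalization, this was a difference of 3.80 in Control and 4.11 in Loaded. Tnni1 differed by 4.40 in Control and 4.53 in Loaded, and Tnnt1 by 3.99 and 3.84. Myh7 itself, which chose the spots, differed by 4.74 and 4.48. The background was 20.8% of all genes higher by at least 1 in Control and 4.35% in Loaded.

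The fast troponins were lower in slow-rich spots when size factors were used, by less, although the direction turned for several of them per UMI of the muscle list. That list holds the heavy chains used for the split, so its own total shifts with the split. Its member Myh4 stood at 85.8 per 10,000 UMIs in slow-rich and 699 in other muscle spots of Control (23.8 and 533 in Loaded). How much of the turn comes from the list itself was not tested. Tnnc2 differed by -1.52 in Control and -1.05 in Loaded, and Tnnt3 by -1.27 and -1.33. Tnni2, which encodes the fast troponin I, differed by -1.74 in Control and -0.81 in Loaded, so the gap between the sections was widest for this fast gene. The muscle share itself was 14.1% in slow-rich and 31.9% in other muscle spots of Control, and 14.4% and 25.8% in Loaded. Per 1000 muscle list UMIs in Control, Tnnc2 was higher in slow-rich spots (104.6 against 87.6), as was Tnnt3 (97.7 against 68.5), and Tnni2 was at 12.6 against 12.3. In Loaded Tnnc2 was at 111 against 108, Tnni2 was higher (7.25 against 5.97) and Tnnt3 lower (81.7 against 96.5). With size factors, of all genes, 13.1% were lower by at least 1 in Control and 7.6% in Loaded. The fast heavy chain Myh4 was lower by more (-3.63 and -4.73), while Myh2, the heavy chain of oxidative fast fibres, was higher (2.28 and 2.19).

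The tropomyosins parted from each other. With size factors Tpm1 differed in slow-rich spots by -2.36 in Control and -1.53 in Loaded, and Tpm2 by 0.11 and 0.55. Per 1000 muscle list UMIs Tpm1 was at 45.6 against 68.2 in Control and 35.7 against 48.4 in Loaded. On that scale Tpm2 was at 102 against 27.6 in Control and 130.04 against 41.6 in Loaded, so the directions held and the size for Tpm2 was larger. This scale too shifts with the heavy chains in the list. In Control slow-rich spots there were 2.24 Tpm2 UMIs per Tpm1 UMI, against 0.406 in other muscle spots. In Loaded the ratios were 3.65 and 0.859. Acta1, the skeletal actin of the same filament, differed in slow-rich spots by -0.87 in Control and -0.09 in Loaded with size factors, but per 10,000 UMIs it was higher there in Loaded (399 against 358).

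The change ran in steps with the Myh7 share. From spots with a Myh7 share under 1% to spots of at least 50%, the slow share of all troponins went from 0.367% to 34.0% in Control (0.539% to 49.1% in Loaded). In the last step the slow share of troponin I was 75.3% in Control and 87.4% in Loaded. Troponin T reached 35.3% and 57.2%, and troponin C 16.9% and 25.9%. The pairs are not ranked, since UMI yield depends on the probes. Tnni2 gave 7.30% of the fast troponin UMIs in other muscle spots of Control and 2.83% in Loaded. Over the same steps Tpm2 per Tpm1 climbed from 0.389 to 3.15 in Control and in Loaded from 0.695 to 5.19. Each of these measures was higher in every later step in both sections.

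**Figure D2:**
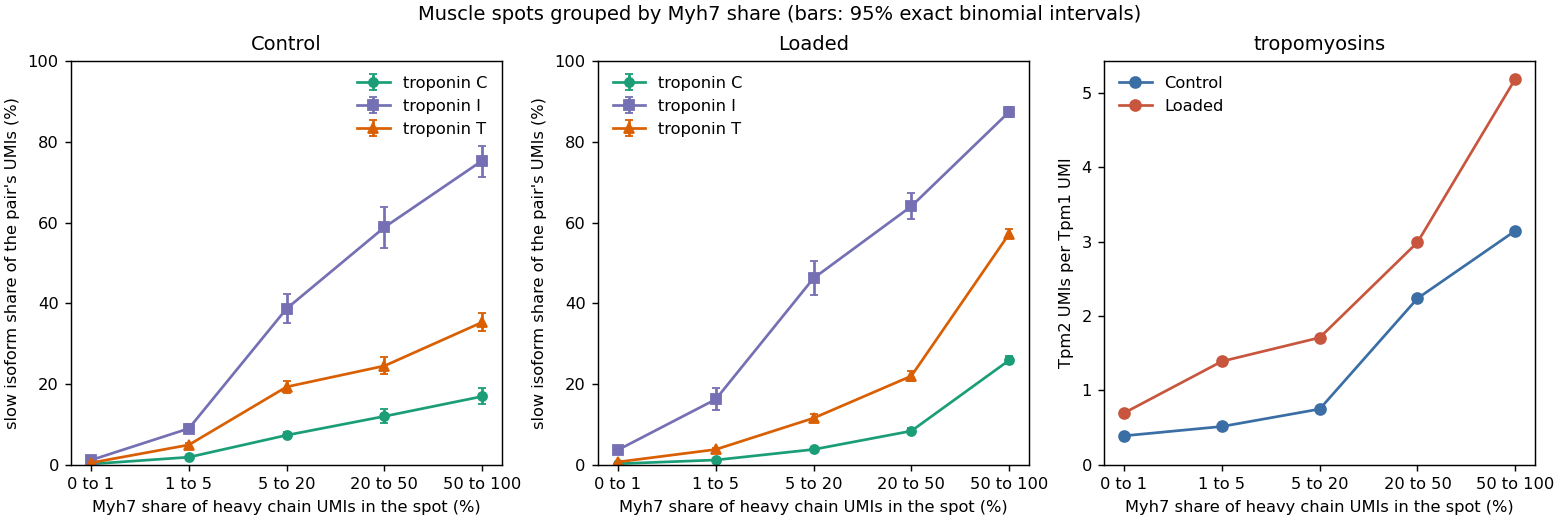
Slow isoform share of each troponin pair (left and middle panel, Control and Loaded, in %) and Tpm2 UMIs per Tpm1 UMI (right panel) in muscle spots grouped by the Myh7 share of heavy chain UMIs; bars are 95% exact binomial intervals. All 3 pairs climb with the Myh7 share, troponin I to 75.3% in Control and 87.4% in Loaded, and the tropomyosin ratio to 3.15 and 5.19.

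Within these classes the sections were closer in the slow share of all 6 troponins. In slow-rich spots the slow share was 28.3% in Control and 33.9% in Loaded, a log2 odds ratio of 0.37 (0.29 to 0.45). In the other muscle spots it was 0.879% and 1.36%, a log2 odds ratio of 0.63 (0.54 to 0.73). Both values lie below the 2.75 of all muscle spots together. By pair, troponin I stayed further apart, at 0.96 (0.74 to 1.18) in slow-rich and 1.76 (1.55 to 1.97) in other muscle spots. Troponin T was at 0.60 and 0.69, and troponin C at 0.16 and 0.32. Slow troponin UMIs per Myh7 UMI lay between 0.865 and 1.39 in Control and between 1.01 and 1.36 in Loaded over the classes of spots compared here. Distance from bone ordered the sections differently. Among Control muscle spots the slow share was 2.69% within 250 µm of bone and 0.0542% beyond 2000 µm, and among Loaded muscle spots it was 7.51% and 14.3%. The outer rings are unlike. That of Control held 320 spots out to 4321 µm, none of them slow-rich. That of Loaded held 43 spots out to 2500 µm, 62.8% of them slow-rich.

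Over all spots each slow troponin stood higher in the Loaded section and each fast troponin lower. Tnnc1 stood at 2.345 per 10,000 UMIs in Control and 8.51 in Loaded, Tnni1 at 3.26 and 11.9, and Tnnt1 at 5.61 and 23.0. With scran size factors the log2 ratios of Loaded over Control were 1.50 (1.43 to 1.58), 1.51 (1.45 to 1.57) and 1.68 (1.63 to 1.73). All 3 were above 1, against a background of 6.22% of the genes counted.

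Tnnc2 stood at 225 per 10,000 UMIs in Control and 161 in Loaded, a log2 ratio of -0.84. Tnnt3 stood at 178 and 138, a log2 ratio of -0.72. Tnni2 stood at 31.8 and 9.39, a log2 ratio of -2.11 (-2.16 to -2.07). Tpm1 stood at 173 and 69.2, a log2 ratio of -1.68 (-1.69 to -1.66), and Tpm2 at 74.6 and 91.7, a log2 ratio of -0.06 with size factors and of 0.30 with library totals. Tnni2 and Tpm1 were below -1, against a background of 4.99% of genes. The muscle list as a whole stood at -1.13, between Tnnc2 and Tpm1. Per UMI of that list Tnnc2 (0.30) and Tnnt3 (0.41) were above 0 and Tnni2 (-0.98) and Tpm1 (-0.54) remained below it. On that scale every gene above -1.13 with size factors lies above 0.

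In the muscle spots that were not slow-rich, Tnnc1 (-0.02, interval -0.22 to 0.18) and Tnni1 (0.08, -0.13 to 0.28) were level between the sections within counting error when size factors were used. Both were higher in Loaded per UMI of the muscle list, at 0.63 (0.43 to 0.83) and 0.72 (0.52 to 0.92). Tnnt1 was higher in Loaded, at 4.49 against 2.45 per 10,000 UMIs and with a log2 ratio of 0.54 (0.41 to 0.66). Tnni2 (-1.69) and Tpm1 (-1.14) again stood apart from Tnnc2 (-0.34), Tnnt3 (-0.15) and Tpm2 (-0.06). They were the 2 of 8 genes below -1, where the background was 5.81% of genes. Per UMI of the muscle list Tnni2 and Tpm1 were also the 2 below 0, at -1.04 and -0.49, while Tnnc2 stood at 0.31 and Tnnt3 at 0.49. The summed list stood at -0.65 in these spots, so every gene above -0.65 with size factors lies above 0 on that scale.

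**Figure D3:**
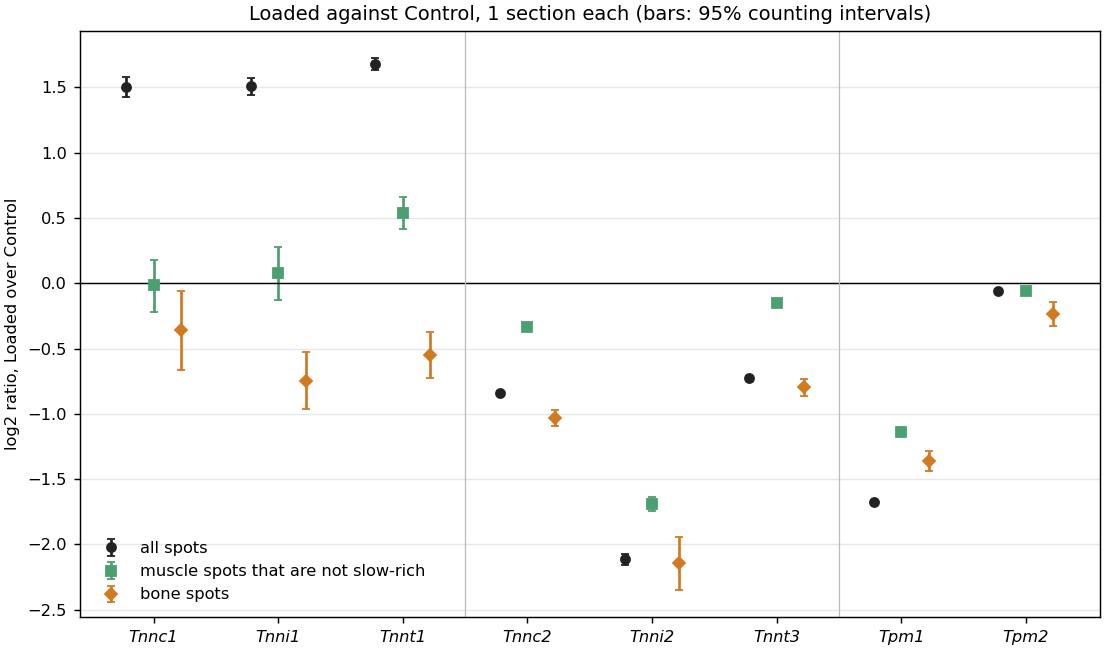
Log2 ratio of Loaded over Control for the 8 genes over all spots, muscle spots that are not slow-rich, and bone spots; bars are 95% counting intervals with 1 section per condition. The slow troponins lie at 1.50 to 1.68 over all spots and below 0 in bone spots (above 0 there per UMI of the muscle list), and Tnni2 and Tpm1 are the lowest in all 3 sets of spots.

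Tnni2 and Tpm1 were set against Tnnt3 in the same spots, a ratio that needs no normalization between sections. Over all spots there were 0.179 Tnni2 UMIs per Tnnt3 UMI in Control and 0.0682 in Loaded, and 0.974 and 0.502 Tpm1 UMIs per Tnnt3 UMI. The muscle spots that were not slow-rich were then cut into 500 µm tiles with at least 10 spots, 42 in Control and 21 in Loaded. For Tnni2 the tiles ran from 0.0577 to 0.293 in Control (median 0.182) and between 0.0270 and 0.0957 in Loaded (median 0.0654). Of the 42 Control tiles, 1 lay at or below the highest Loaded tile, and 13 of the 21 Loaded tiles lay at or above that Control tile. For Tpm1 the tiles ran between 0.655 and 1.37 in Control and between 0.338 and 0.711 in Loaded. Here 3 Control tiles lay at or below the highest Loaded tile, and 4 Loaded tiles at or above the lowest Control tile. For Tnnc2, the fast troponin C, 38 of 42 Control tiles lay at or below the highest Loaded tile. Tiles of 1 section share a mouse and a library and are not replicates.

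The Tnni2 ratio also differed between classes of spots within a section. In spots grouped by the Myh4 share of heavy chains, from 70% upward, it was 0.177 to 0.186 in Control. In Loaded it was 0.0748 in spots with under 50% Myh4 and 0.0543 to 0.0701 in the other groups. Against other muscle spots (0.179 in Control and 0.0619 in Loaded), slow-rich spots were lower in Control at 0.129 and higher in Loaded at 0.0887. Bone spots were at 0.210 and 0.0826. It was the lower value in Loaded in each of these classes.

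**Figure D4:**
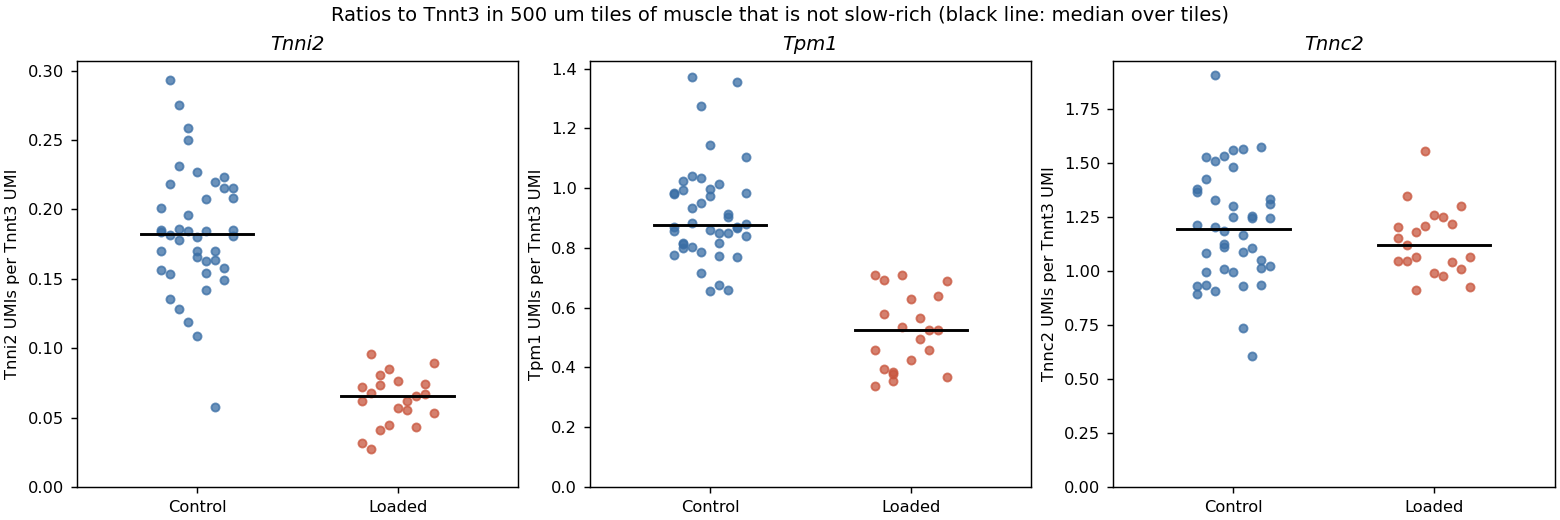
UMIs of Tnni2, Tpm1 and Tnnc2 per Tnnt3 UMI in each 500 µm tile of muscle that is not slow-rich, 42 tiles in Control and 21 in Loaded; the black line is the median over tiles. For Tnni2 (medians 0.182 and 0.0654) 1 Control tile lies within the Loaded range, and 13 of 21 Loaded tiles lie at or above it. The sections overlap in 3 Control and 4 Loaded tiles for Tpm1, and broadly for Tnnc2.

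In the bone spots all 8 genes stood lower in the Loaded section with size factors, against a background of 48.7% of genes on that scale. Per UMI of the muscle list 6 of them turned, but on that second scale at most 9.81% of all genes lay below 0. The median over the 8 was -0.77, against 0.02 over the 10003 genes counted and -1.17 over the genes of the muscle list. Summed, that list stood at -1.09, from 13.8% of bone UMIs in Control to 7.01% in Loaded. Together the 8 genes made up 4.45% of bone UMIs in Control and 2.51% in Loaded.

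Of the slow set, Tnnc1 was counted at 238 UMIs in Control and 148 in Loaded bone spots, a log2 ratio of -0.36 (-0.66 to -0.06). Tnni1 was counted at 541 and 257 UMIs (-0.75, -0.97 to -0.53) and Tnnt1 at 744 and 405 (-0.55, -0.73 to -0.37). Of the fast set, Tnnc2 was counted at 7991 and 3116 UMIs (-1.03), Tnnt3 at 6123 and 2810 (-0.80) and Tnni2 at 1286 and 232 (-2.14, -2.35 to -1.94). Tpm1 was counted at 5497 and 1705 UMIs (-1.36, -1.44 to -1.28), and Tpm2 at 2364 and 1603 (-0.23, -0.33 to -0.14). Tnnc2, Tnni2 and Tpm1 were below -1, a size reached by 9.81% of genes. Per UMI of the muscle list 6 of the 8 lay above 0, from 0.06 for Tnnc2 to 0.86 for Tpm2. Tnni2 (-1.05) and Tpm1 (-0.27) lay below it. On that scale a gene lies below 0 only if its size factor ratio is under -1.09, the value of the summed list. Since 9.81% of genes were at -1 or below, lying above 0 on that scale does not set these 6 apart.

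**Figure D5:**
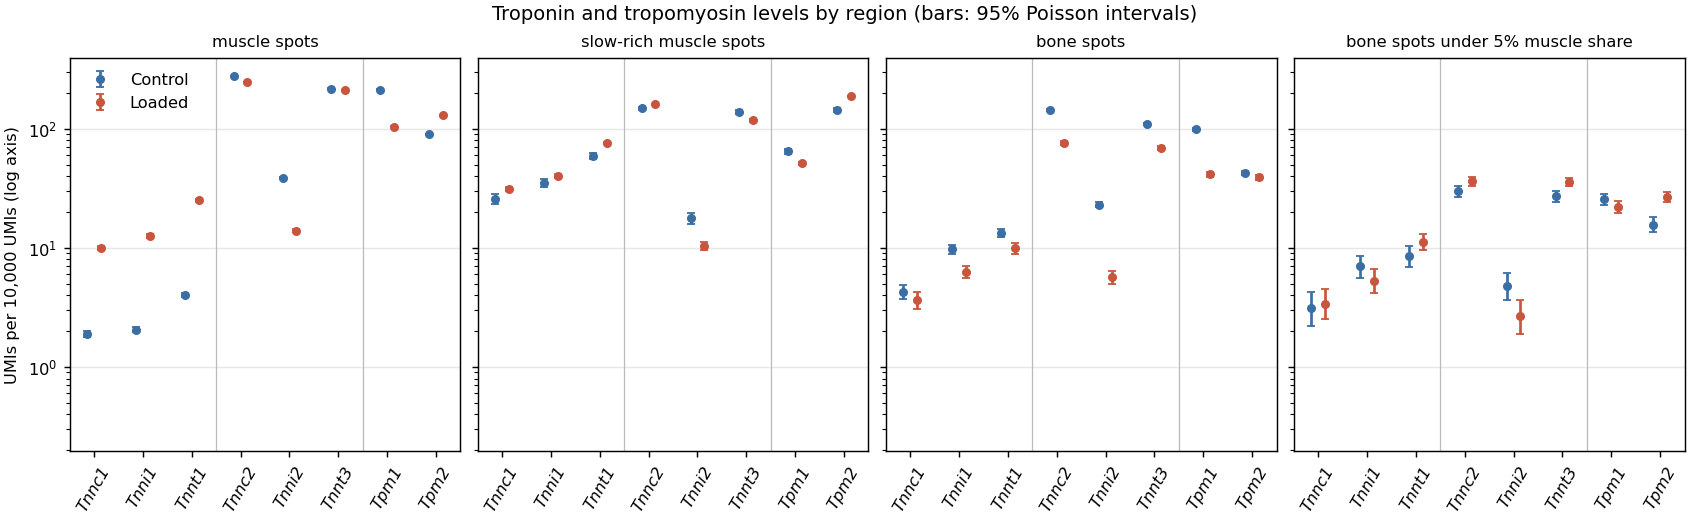
UMIs per 10,000 UMIs (log axis) of the 8 genes in muscle spots, slow-rich muscle spots, bone spots and bone spots under 5% muscle share, Control in blue and Loaded in red; bars are 95% Poisson intervals. In bone spots Loaded lies below Control for each gene, by most for Tnni2 (23.1 and 5.67), and in bone spots under 5% muscle share Tnni2 (4.81 and 2.66) is again lower in Loaded while Tpm2 (15.6 and 26.6) and Tnnt3 (27.2 and 35.8) are higher.

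The bone region was uneven inside each section, and 4 blocks were set by position (upper or lower cortex, left or right end). In Control the slow share was 36.3% and 21.9% in the lower blocks and 2.33% and 4.15% in the upper ones. In Loaded it was 9.10% and 4.41% in the lower blocks and 25.7% and 12.2% in the upper ones. The higher blocks lay on the side of the slow-rich patches nearest to bone in both sections, below in Control and above in Loaded. For each of the 8 genes the blocks of the sections overlapped. Of all genes, 3.76% had their 4 Loaded blocks above their 4 Control blocks, and 2.66% had them below. Tnni2 came closest to parting, with 2.63 to 17.7 normalized counts per spot over Control blocks and 0.950 to 2.78 over Loaded blocks.

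The slow share over all bone spots was 9.0% (8.57 to 9.44) in Control and 11.6% (10.9 to 12.4) in Loaded, a log2 odds ratio of 0.41 (0.28 to 0.54). This difference did not hold within the region. Without the upper left block of Control it was -1.18, without the upper left block of Loaded -0.21 and without the lower left block of Control 1.21. By pair, over all bone spots, it was 1.40 for troponin I, 0.67 for troponin C and 0.25 for troponin T. For troponin I both genes stood lower in Loaded with size factors, Tnni1 by -0.75 and Tnni2 by -2.14. In bone spots of at least 5% muscle share troponin T was at -0.06 (-0.30 to 0.16). In the bone spots with under 5% muscle share, 25 in Control and 37 in Loaded, the slow share was 23.1% (20.5 to 25.8) and 21.04% (18.9 to 23.3), so the sections were level within counting error. In these spots the fast troponins stood at 61.9 (Control) and 74.7 (Loaded) per 10,000 UMIs, while the slow ones were at 18.6 and 19.9.

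Across bone spots the fast troponins followed the muscle list and the slow ones did not. From bone spots under 5% to those of at least 20% muscle share the fast set went from 61.9 to 526 per 10,000 UMIs in Control. The slow set went from 18.6 through 56.3 and 20.7 to 10.1. In Loaded the fast set went from 74.7 to 246 at 10 to 20% muscle share, and the slow set from 19.9 through 21.1 to 16.6. Only 1 Loaded bone spot had a higher muscle share. Over single spots the Pearson correlation of the fast set with muscle share was 0.98 over 131 Control spots and 0.93 over 146 Loaded spots, and that of the slow set was -0.07 and -0.20. Tpm1 (0.92 and 0.65) was nearer the fast set than Tpm2 (0.61 and 0.30). Spots of a section share its library and their depth, and the muscle list consists largely of genes of fast fibres.

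Nearly every spot held some fast troponin RNA, also away from muscle. With each spot thinned to 1000 UMIs, Tnnt3 was found in 99.2% of the 131 Control bone spots and 98.5% of 131 Loaded ones, where 15 shallower spots were left out. Outside bone, in spots under 5% muscle share, it was found in 92.4% of 406 Control and 95.2% of 289 Loaded spots. The presence of a UMI therefore did not set bone spots apart. Tnni2 was found in 77.1% of Control and 42.7% of Loaded bone spots, and in 36.0% and 24.9% of the other low-muscle spots. Without thinning it was found in 95.4% and 70.5% of bone spots, at median depths of 3478 and 2621 UMIs. Tnni1 was found in 57.3% and 36.6% of thinned bone spots, Tnnt1 in 62.6% and 55.7%, and Tnnc1 in 31.3% and 20.6%. At 1000 UMIs the intervals of the sections overlapped for Tnnt1 and Tnnc1 and not for Tnni1 (48.3 to 65.9% and 28.4 to 45.5%). With spots thinned to 500 UMIs and no spot left out, the intervals overlapped for each slow gene. Thinning draws UMIs at random and each depth was drawn separately, so small differences between the depths describe little. Tnni1 was then found in 33.6% and 32.9%, Tnnt1 in 35.1% and 37.0%, and Tnnc1 in 19.8% and 22.6%. The gap in Tnni2 remained, at 54.2% and 26.0%.

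The tropomyosins, which have products outside muscle, were set against the troponins. There were 0.562 tropomyosin UMIs (Tpm1 and Tpm2) per troponin UMI in Control muscle spots and 0.512 in Control bone spots under 5% muscle share. In Loaded the ratios were 0.451 and 0.515. The differences on the log2 scale were -0.14 (-0.29 to 0.02) in Control and 0.19 (0.06 to 0.32) in Loaded. The sum hides members that went opposite ways in Control, where the difference was -0.32 for Tpm1 alone and 0.22 for Tpm2 alone, while in Loaded it was 0.22 and 0.17. In slow-rich muscle spots the ratio was 0.493 in Control and 0.547 in Loaded, so low-muscle bone lay above slow-rich muscle in Control and below it in Loaded, within the intervals of the bone values. Smooth muscle genes (Acta2, Myh11, Tagln, Cnn1, Smtn, Mylk) supplied 0.0513% of bone UMIs in Control and 0.0323% in Loaded. In muscle spots they supplied 0.0285% and 0.0702%. Their part in the tropomyosin values was not tested.

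The other thin filament genes counted in bone were also lower in Loaded with size factors, where the summed muscle list stood at -1.09. Of a list of 16, 14 were in the files and 12 had at least 10 UMIs over both bone regions, and the log2 ratios of these 12 were below 0, against 48.7% of all genes, with a median of -0.80, less far below 0 than the muscle list. Acta1 (-1.17), Neb, the giant ruler of the thin filament (-1.37), Klhl40, which stabilizes nebulin (-1.45), and Tnnt2, the cardiac troponin T (-2.64), were below -1. That size was reached by 9.81% of all genes and by 15 of the 22 muscle list genes. Tnnt2 was counted at 86 UMIs in Control and 11 in Loaded bone spots. Per 10,000 UMIs it stood at 1.54 in bone spots and 0.12 in muscle spots of Control, and at 0.27 and 0.26 in Loaded. In bone spots under 5% muscle share it stood at 1.77 in Control, with 1 UMI in Loaded. The other heart markers had fewer than 10 UMIs over both bone regions. Tnni3, the cardiac troponin I, had 2 UMIs and 1 UMI there. Over all spots 3 of 14 list genes were above 0, against 53.4% of all genes, with a median of -0.33. The summed muscle list stood at -1.13 there. Neb (-1.23) was below -1, as were 4.99% of all genes. Tnni3, at 16 UMIs in Control and 32 in Loaded, was above 1 (1.52), as were 6.22% of all genes.

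The genes most like each set were found over spots with at least 500 UMIs, 1898 in Control and 1431 in Loaded, among 1541 genes. The 5 most like the summed slow troponins were Myh7 (r = 0.79 in Control and 0.80 in Loaded), the slow light chains Myl2 (0.62 and 0.66) and Myl3 (0.61 and 0.61), Myh2 (0.52 and 0.52) and Myoz2, a Z-disc protein of slow fibres (0.48 and 0.51). The 5 most like the fast troponins were Ckm, the muscle creatine kinase (0.94 and 0.93), Atp2a1, the calcium pump of fast fibres (0.93 and 0.93), Mylpf (0.91 and 0.90), Acta1 (0.93 and 0.90) and Eno3 (0.89 and 0.89). In spots under 5% muscle share, 473 in Control and 332 in Loaded, the 5 genes most like Tpm1 were Atp2a1, Pvalb, Myh4, Acta1 and Aldoa, with no r above 0.37. Those most like Tpm2 were Myh7, Acta1, Tcap, Myh2 and Des, with no r above 0.48, and correlations of this size in sparse counts describe little. The spots share a library, depth and neighbouring tissue, and these values describe likeness alone.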

How the data were processed

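Formalin-fixed, paraffin-embedded femur sections, 1 per condition, were measured with the Visium probe assay. The authors aligned the reads to mm10 and made counts of UMIs for each gene in each spot in Space Ranger 2.0.0, per the file headers and labels. The deposited values are raw UMI counts of all spots under tissue, without normalization, and are whole numbers. No sample column was left unused. Bone spots were those the authors list by barcode. Their regions of high and low strain were not analysed here.

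Counts were summed per region and read as shares (exact binomial intervals), levels (exact Poisson intervals) and ratios (exact conditional binomial intervals), all at 95%. Log2 odds ratios had normal intervals on the log scale for large counts and exact conditional ones for small counts. Python 3.11.15, scipy 1.17.1 and pandas 2.3.3 were used. Size factors came from scran 1.30.0 in R 4.3.3, over bone spots for the bone comparison and over all spots for the others, and TMM factors from edgeR 4.0.16. Genes needed at least 10 UMIs over both sections, and a count of 0 was set against a floor of 3. A muscle share is the part of a spot's UMIs from the 22-gene list. Bone blocks were cut along the direction that best split each region in 2, in place of the first principal axis, which had mixed the cortices. The intervals were tested on simulated Poisson and binomial counts, the kind of counts they assume. There 96.6% of the ratio intervals held the true value, and 95% of the normal intervals of a log2 odds ratio between shares. The exact intervals of single shares and of odds ratios were not simulated. Differences between spots, blocks or mice were not simulated, so this shows only that the calculation works. Motifs were searched in both strands of RefSeq promoters of GRCm38.p6, and gene positions came from GENCODE for the same build.

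All named members are given with values, then Acta1, Neb, Tnnt2, Tnni3 and thin filament list genes past 1, and the 5 genes most like each set. Myh7, Myh2, Myh4 and Atp2a1 describe the split of spots. The members and lists were chosen with earlier results of these data known. Tpm3, Tpm4, Actc1 and Hba-a1 were not analysed here. Normalization, filter, spot class, weighting and left-out blocks were varied.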

Additional observations from a re-analysis of the deposited data

Results flagged for a closer look

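The tropomyosin to troponin ratio of low-muscle bone spots, set against that of muscle spots, pointed in opposite directions in the 2 sections. It stood at -0.14 on the log2 scale in Control (interval -0.29 to 0.02, 514 tropomyosin and 1004 troponin UMIs in the bone spots) and at 0.19 in Loaded (0.06 to 0.32, 715 and 1388 UMIs). The difference between the sections was not tested, since there was 1 section per condition, and the Control interval includes 0.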

How the results depend on the processing

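The slow share over all spots stayed higher in Loaded under each alternative. The log2 odds ratio was 2.75 over muscle spots, 1.77 with equal weight for every spot, 2.48 without the troponin C pair and 2.38 without Tnni2, the last chosen after seeing the data. In bone spots it was 0.21 with at least 5% muscle share, 0.21 with equal weight, -0.17 under 5% muscle share, and -1.18 to 1.21 with 1 of 8 blocks left out. The median over the 8 genes in bone was -0.40 with equal weight, 0.32 per UMI of the muscle list, 0.23 under 5% muscle share, and -1.06 to -0.37 with a block left out. Over all spots it was -0.035 with library totals, -0.43 with TMM, -0.26 without the 20 most abundant genes, 0.74 per UMI of the muscle list, -0.14 over muscle spots and, chosen after seeing the data, -0.10 without slow-rich spots. Between slow-rich and other muscle spots the log2 odds ratio of 5.48 in Control was 5.30 when split by light chains. The 5.22 of Loaded was 5.34 and 4.95 with the Myh7 share split at 5% and 20%, 4.98 and 4.31 with muscle spots from 5% and 20% muscle share, and 4.95 by light chains. The tropomyosin ratio in Control was -0.32 with Tpm1 alone and 0.22 with Tpm2 alone, and in Loaded 0.35 against muscle spots of at least 20%. For single genes in bone the direction turned per UMI of the muscle list for Tnnc1 (0.73), Tnnc2 (0.060), Tnni1 (0.34), Tnnt1 (0.54), Tnnt3 (0.29) and Tpm2 (0.86). It turned under 5% muscle share for Tnnc1 (0.15), Tnnc2 (0.30), Tnnt1 (0.42), Tnnt3 (0.42) and Tpm2 (0.79). With a block left out the values ran from -0.69 to 0.31 for Tnnc1, -1.55 to 0.31 for Tnnc2, -1.27 to 0.42 for Tnnt3 and -0.56 to 0.26 for Tpm2. They stayed below 0 for Tnni1 (-1.10 to -0.12), Tnnt1 (-0.96 to -0.01), Tnni2 (-2.62 to -0.92) and Tpm1 (-1.86 to -0.05). Over all spots Tnnc2 (0.30), Tnnt3 (0.41) and Tpm2 (1.07) turned per UMI of the muscle list, and Tpm2 also with library totals (0.30) and without the 20 most abundant genes (0.071). The causes were not tested. Counting Tpm3 as slow and Tpm1 as fast was not run, since Tpm3 was not analysed here. No paired analysis was possible because each condition had 1 section. Counts were small in the low-muscle bone spots, 25 in Control and 37 in Loaded, with 39 Tnnc1 UMIs in Control and 39 Tnni2 UMIs in Loaded. Their median depth, 4166 and 3642 UMIs, was above that of all bone spots (3478 and 2621).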

Other observations

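In the muscle spots that were not slow-rich, most thin filament genes beside the troponins lay a little lower in Loaded with size factors. Of 13 with at least 10 UMIs, 12 lay below 0 on the log2 scale of Loaded over Control with size factors, against 50.2% of all genes. Their median was -0.19, and the median over the muscle list genes in the same spots was -0.67. Summed, the thin filament list supplied 4.42% of the UMIs there in Control and 4.16% in Loaded, and the muscle list 31.9% and 25.8%. Nrap, an organizer of myofibril assembly (-0.04), Lmod2, a leiomodin of thin filament ends (-0.04), and Klhl41 (-0.04) were level within counting error on that scale. Neb (-0.99) was the lowest, and Tnni3 (2.06), with 6 UMIs in Control and 9 in Loaded, was the gene above 0.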
